A study of Homo sapiens with 9 samples.

Results

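The 10 genes described here, ASXL1, ASXL2, BAP1, HCFC1, OGT, FOXK1, FOXK2, MBD5, MBD6 and KDM1B, encode the deubiquitinase BAP1, the ASXL proteins that bind it and the partners that copurify with them. They were taken by gene symbol from count tables that list 25680 symbols, and each gene was represented by its RefSeq transcript with the highest total count. All 10 passed the filter on low counts that left 14199 genes for testing. Messenger RNA had been sequenced from SKNO-1, a line of human acute myeloid leukaemia with the AML1-ETO (RUNX1-RUNX1T1) fusion, described by the study as wild type for ASXL1 and ASXL2. The 9 samples fell into EV (the control, an abbreviation that the labels leave unexplained where the study speaks of a control shRNA) and SH2 and SH3, cells with either of 2 shRNAs directed against ASXL2, with 3 samples in each group. All 9 carried the fusion and, per the study's culture methods, were grown with GM-CSF, so they describe knockdown in 1 cell line and not deletion of the gene. The study describes the samples of each group as biological replicates. The labels number them 1, 13 and 25 without saying what the numbers stand for.

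BAP1 is a ubiquitin hydrolase that removes monoubiquitin from histone H2A, the mark that Polycomb repressive complexes place. It works in a complex with an ASXL protein, whose deubiquitinase adaptor domain activates it, and with the transcriptional coregulator HCFC1, the O-GlcNAc transferase OGT, the forkhead factors FOXK1 and FOXK2, the methyl-CpG-binding-domain proteins MBD5 and MBD6 and the histone demethylase KDM1B. ASXL1 is recurrently mutated across myeloid neoplasms, and ASXL2 mutations are known above all from leukaemia with AML1-ETO.

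With 1 transcript per gene, the libraries held 27714431 to 35406063 counts. The cells matched their label in 5 of 6 markers of this leukaemia type: RUNX1, RUNX1T1, KIT, MPO and SPI1 passed the filter in the 9 samples, whereas CD34 was at 0.0680 to 0.309 CPM (counts scaled to the library total) and did not pass. Of 10 markers of T, B, erythroid, fibroblast and epithelial cells, none passed the filter and CD3E, MS4A1, HBB and COL1A2 were among those at 0 in every sample. The summed level of these 10 markers was 0.0667 to 0.193 CPM in EV, 0.0670 to 0.173 CPM in SH2 and 0.0364 to 0.238 CPM in SH3. The 3 samples numbered 1 stood apart from the other 6: with the group as a term, edgeR called 46.3% of all tested genes between them and the samples numbered 13 and 25. Results of the 10 genes for both shRNAs together are therefore given with and without the sample number as a block. Values of a single shRNA or of a listed gene are without it unless stated.

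In the EV cells, BAP1 had the highest mean level per length of the 10 genes and MBD5 the lowest. Levels were set per kilobase (kb) of each gene's canonical transcript in the GENCODE annotation, which need not be the RefSeq transcript counted, so the order is approximate. BAP1 stood at 46.1 ± 3.54 CPM per kb (SD, n = 3), OGT at 44.1 ± 12.1 CPM per kb and FOXK2 at 38.3 ± 2.67 CPM per kb, and the EV samples of neighbours in this top order overlapped. HCFC1 followed at 28.1 ± 3.22 CPM per kb, ASXL1 at 21.2 ± 1.08 CPM per kb and MBD6 at 16.7 ± 1.03 CPM per kb. From FOXK2 downward, all 3 EV samples of each gene lay above all 3 of the next. KDM1B had 11.3 ± 0.773 CPM per kb, FOXK1 8.01 ± 0.183 CPM per kb, ASXL2 5.46 ± 0.307 CPM per kb and MBD5 0.993 ± 0.255 CPM per kb. The deubiquitinase was thus measured well above either ASXL transcript per length, and ASXL1 above its paralogue ASXL2. The third paralogue, ASXL3, had a single count in the SH3 sample numbered 1 and none in the other 8 samples, which at the depth of EV allows up to 0.0847 to 0.103 CPM (3 counts, counting error only).

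**Figure D1:**
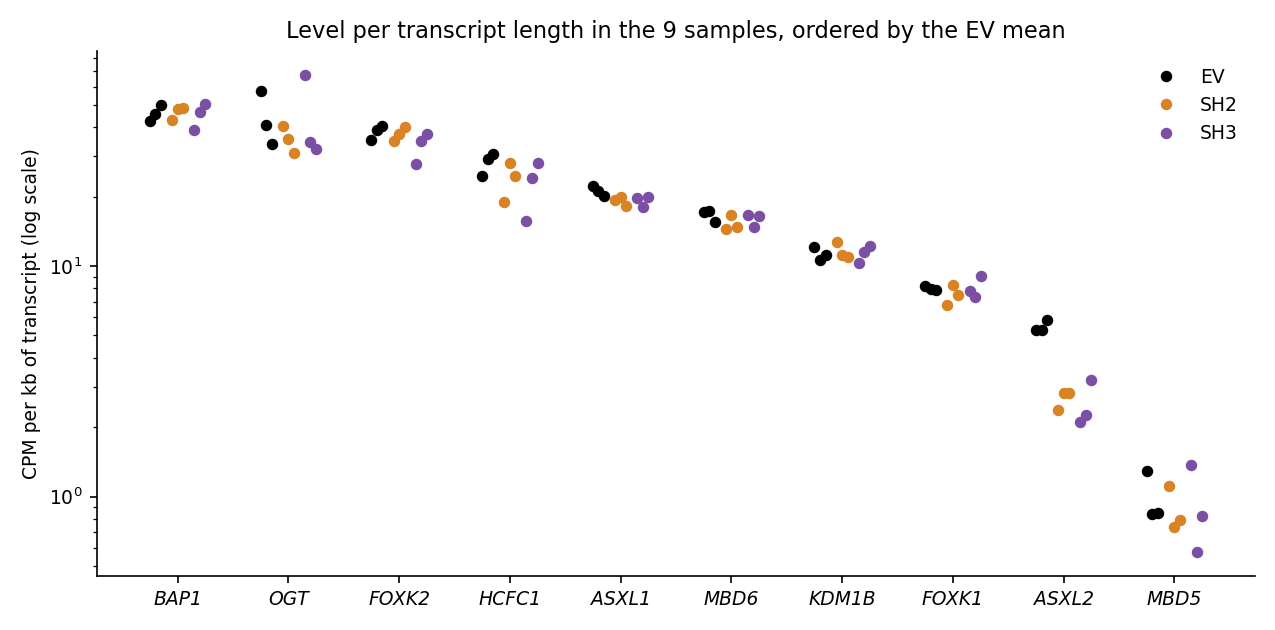
Each point is the level of a gene in 1 sample, in CPM per kb of its canonical transcript on a log axis, coloured by group (EV, SH2, SH3; 3 samples each), with genes ordered by their EV mean. ASXL2 drops from 5.46 CPM per kb in EV to 2.67 in SH2 and 2.52 in SH3, whereas the points of the other genes overlap or nearly touch between the groups.

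The promoters of the knockdown target and of its paralogue are shown for the sequence context of the genes on which the comparison turns. Of the 10 genes, 8 had an entry in the RefSeq promoter table (build GRCh38.p14), and BAP1 and HCFC1 had none. The 250 bases before the annotated start are printed 5′ to 3′ along the gene's strand, and capitals mark matches on either strand to CCATNTT, a YY1-type motif (YY1 is a BAP1 partner), or CCGGAAG, an ETS-type motif. The ASXL1 window holds both, side by side without overlap, and the ASXL2 window holds the ETS-type match alone.
ASXL1 (chr20:32358081-32358330, plus strand): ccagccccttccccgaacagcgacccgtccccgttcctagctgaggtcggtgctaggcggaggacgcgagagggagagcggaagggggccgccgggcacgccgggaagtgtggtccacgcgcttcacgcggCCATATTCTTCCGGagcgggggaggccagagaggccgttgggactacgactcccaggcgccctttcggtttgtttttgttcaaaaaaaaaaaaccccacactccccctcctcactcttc
ASXL2 (chr2:25878488-25878737, minus strand): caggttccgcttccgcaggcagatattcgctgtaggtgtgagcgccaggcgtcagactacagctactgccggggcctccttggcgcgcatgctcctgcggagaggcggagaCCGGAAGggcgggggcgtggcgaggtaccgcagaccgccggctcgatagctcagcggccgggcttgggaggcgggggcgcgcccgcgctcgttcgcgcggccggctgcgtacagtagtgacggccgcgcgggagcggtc
Of 27305 promoters in the table, 11.7% hold the YY1-type and 8.82% the ETS-type letters in the same window. Among the 8 genes with an entry, 2 (ASXL1 and OGT) hold the former and 3 (ASXL1, ASXL2 and MBD5) the latter, and these matches are letters in a window, not measured binding.

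ASXL2, the target, was below EV in every sample of both shRNAs. ASXL2 (NM_018263, chromosome 2, 25956622 to 26101356, minus strand, GRCh37) had 67.9, 67.9 and 74.7 CPM in the EV samples numbered 1, 13 and 25. It had 30.4, 36.2 and 36.2 CPM in SH2 and 26.9, 29.1 and 41.1 CPM in SH3. Every knockdown sample was below every EV sample, and 48.8% ± 4.26 (SD, n = 3) of the level in the same-numbered EV sample was left in SH2 and 45.8% ± 8.13 in SH3. In bulk RNA a smaller number of expressing cells and less RNA per cell cannot be told apart. The highest knockdown level was in the SH3 sample numbered 25, and the lowest in the SH3 sample numbered 1. For both shRNAs together the log2 fold change was −1.08 (95% interval −1.37 to −0.78), and edgeR's adjusted p was 0.177 without the block. With the replicate block it was −1.09 (−1.27 to −0.90) at an edgeR adjusted p of 0.00098, and ASXL2 was the only one of the 10 genes called lower. In that fit 156 of 14199 genes, 1.1%, were called, and in the separate comparisons 0.282% for SH2 and 0.416% for SH3. Without the block edgeR called 0% of genes in each shRNA comparison (942 genes had an unadjusted p under 0.05 for both shRNAs together, 762 for SH2 and 723 for SH3), whereas DESeq2 without the block called 0.447% for both shRNAs together, ASXL2 among them (DESeq2 adjusted p 1.8e-08). Leaving out each of the 9 samples in turn under the block, the ASXL2 call held in all 9 fits for both shRNAs together and for SH3. For SH2 it was lost without the SH2 sample numbered 1 (log2 fold change −1.02, edgeR adjusted p 0.0694) and without that numbered 25 (−0.98, edgeR adjusted p 0.115).

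ASXL1, the paralogue, was in no knockdown sample above the lowest EV sample. ASXL1 (NM_015338, chromosome 20, 30946134 to 31027122, plus strand, GRCh37) had 156.7, 149.3 and 141.4 CPM in EV, 136.1, 141.1 and 128.1 CPM in SH2, and 139.6, 126.9 and 141.2 CPM in SH3. All 6 knockdown samples lay below all 3 EV samples, but the EV sample numbered 25 and the SH3 sample numbered 25 were nearly level, at 141.4 and 141.2 CPM. Of all tested genes, 2.61% were lower without overlap in this way, ASXL1 and ASXL2 being the members among them. The log2 fold change of ASXL1 for both shRNAs was −0.14 (95% interval −0.31 to 0.03), and edgeR's adjusted p was 0.822, or 0.243 with the replicate block. It was −0.14 with SH2 and −0.13 with SH3, at edgeR adjusted p values of 0.966 and 0.971. A correction for transcript length and GC content brought it to −0.0096 with SH2, −0.028 with SH3 and −0.019 for both (−0.0094, −0.028 and −0.019 with the replicate block as well).

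**Figure D2:**
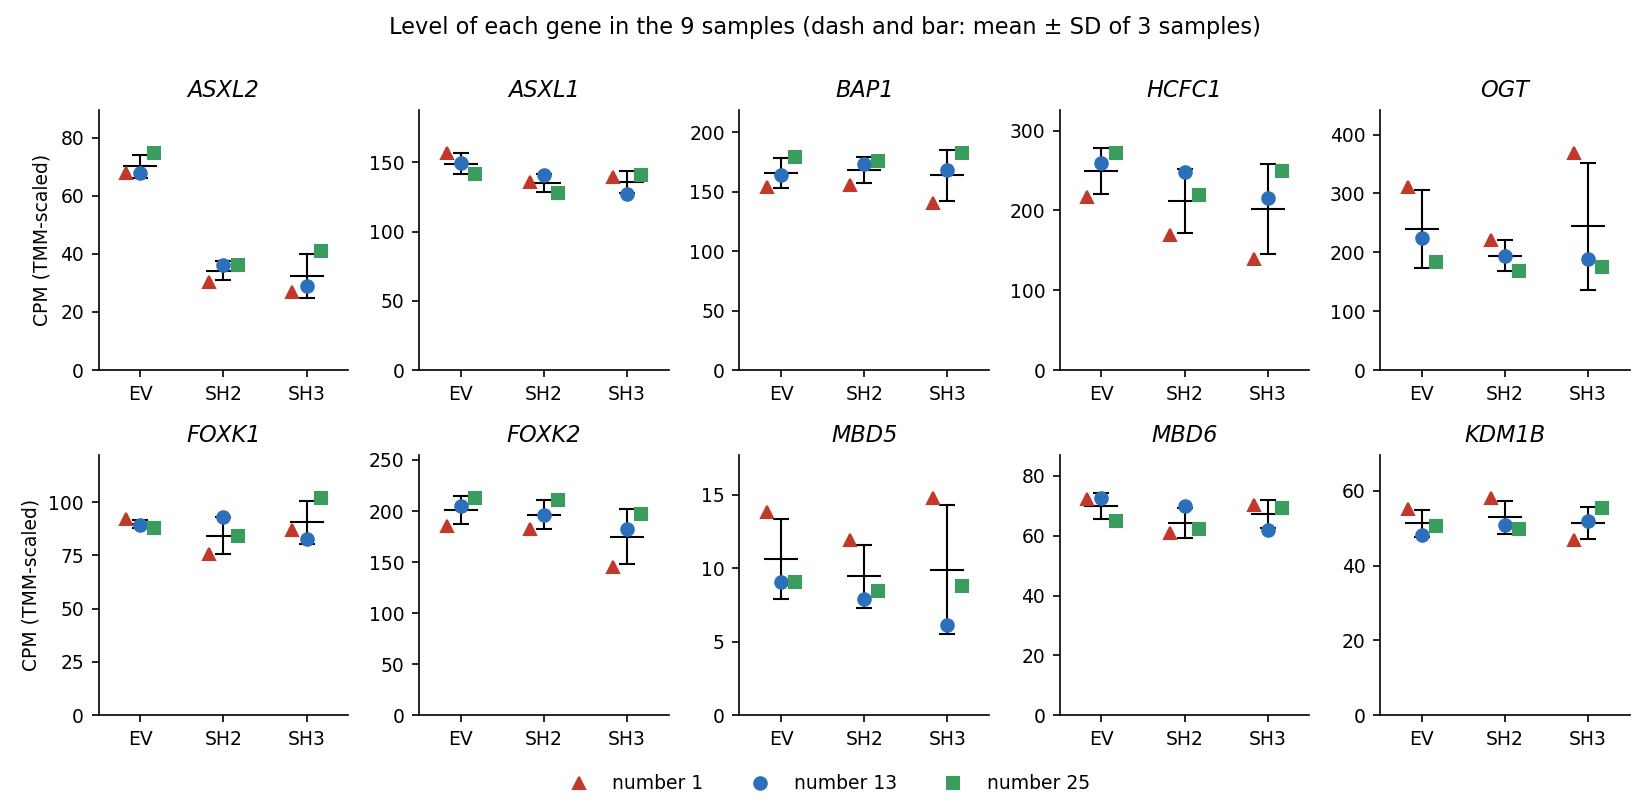
TMM-scaled CPM of each gene in every sample, with the sample number as symbol (triangle 1, circle 13, square 25) and the group mean ± SD (n = 3) as dash and bar; each axis starts at 0. ASXL2 separates the groups, while OGT and MBD5 have their highest points, and HCFC1 its lowest, in the samples numbered 1.

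Because ASXL1 and ASXL2 occupy the same place in the complex, the share of ASXL2 in their summed level per kb was followed. It was 19.2%, 20.0% and 22.5% in the EV samples numbered 1, 13 and 25. It was 10.9%, 12.3% and 13.4% in SH2 and 9.58%, 11.2% and 13.8% in SH3. The means were 20.6% ± 1.71 in EV, 12.2% ± 1.26 in SH2 and 11.5% ± 2.13 in SH3 (SD, n = 3), so that ASXL1 held the larger share in every sample, the more so in the knockdown. A two-sided exact permutation test of the 6 knockdown against the 3 EV samples gave p = 0.0119, the smallest value that 84 splits allow. Over the 27 splits that keep 1 EV sample per number it gave 0.0370, again the smallest possible, and since ASXL2 is the shRNA target this measures the knockdown itself.

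A second ASXL1 transcript, NM_001164603, was counted beside NM_015338 and the pair share reads. Its count was 5.95%, 6.81% and 8.13% of that of NM_015338 in the EV samples, 4.97%, 5.89% and 6.09% in SH2, and 4.85%, 5.50% and 7.48% in SH3. In each group the sample numbered 1 had the lowest and that numbered 25 the highest ratio, and all 6 knockdown samples were below the EV sample of their number, although the groups overlapped. In the knockdown samples the mean fell by 1.17 percentage points (two-sided exact permutation test over 84 splits, p = 0.131), and within numbers p was 0.0370, the smallest of 27 splits. Without the SH3 sample numbered 25, the knockdown sample with the highest ratio, it fell by 1.51 percentage points (exact permutation p = 0.0357). Leaving out each of the 9 samples in turn changed the outcome in this 1 case only, and the difference ran from −1.68 to −0.58 percentage points. Tested as a transcript among 30546, NM_001164603 changed by −0.39 on the log2 scale for both shRNAs without the block. The edgeR adjusted p was 0.738 in that fit, which called 0% of transcripts. With the replicate block the change was −0.40 (interval −0.65 to −0.15, edgeR adjusted p 0.0915), and 0.966% of transcripts were called. In the blocked fit it was −0.44 with SH2 (−0.73 to −0.15) and −0.37 with SH3 (−0.66 to −0.08). Their edgeR adjusted p values were 0.135 and 0.168, so NM_001164603 was not called in either fit. OGT was the only other of the 10 genes with a second transcript, and its NM_181672 and NM_181673 held identical counts in every sample.

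**Figure D3:**
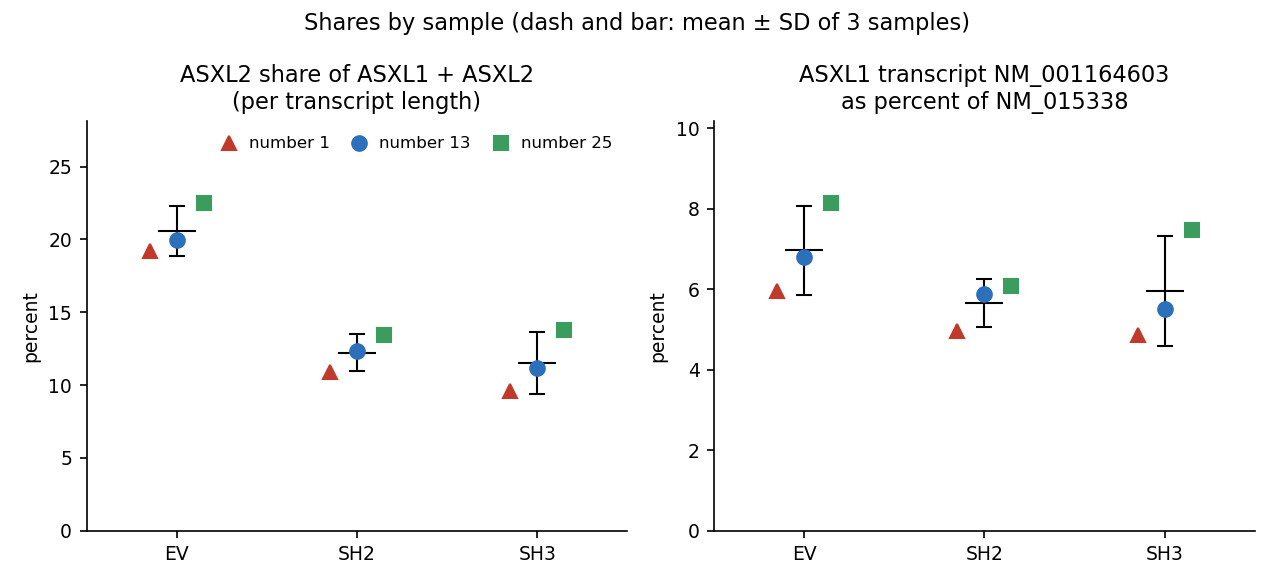
Left, the percent of the summed ASXL1 and ASXL2 level per kb that was ASXL2; right, the count of ASXL1 transcript NM_001164603 as a percent of NM_015338; symbols give the sample number and bars the mean ± SD of 3 samples. The ASXL2 share is 19.2% to 22.5% in EV and 9.58% to 13.8% in the knockdown samples, while the ASXL1 transcript ratio overlaps between the groups.

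No change of the catalytic subunit was detected in the knockdown cells. BAP1 (NM_004656, chromosome 3, 52435024 to 52444024, minus strand, GRCh37) had 154.0, 164.2 and 179.4 CPM in the EV samples numbered 1, 13 and 25, 155.8, 173.0 and 175.5 CPM in SH2, and 140.2, 168.2 and 182.4 CPM in SH3. The groups overlapped throughout, and each group was lowest in its sample numbered 1 and highest in that numbered 25. The fitted change for both shRNAs was 0.00 on the log2 scale (95% interval −0.22 to 0.22, and −0.13 to 0.13 with the replicate block), and its sign turned under other scalings. These intervals leave out a change of BAP1 as large as that of ASXL2.

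HCFC1 and OGT form an enzyme and substrate pair, since OGT both glycosylates HCFC1 and cleaves it. HCFC1 (NM_005334, chromosome X, 153213008 to 153237269, minus strand, GRCh37) had 217.5, 259.9 and 271.9 CPM in EV, 169.3, 248.4 and 219.0 CPM in SH2, and 139.4, 215.2 and 249.6 CPM in SH3. Each knockdown sample was below the EV sample of its number, at 77.8%, 95.6% and 80.5% of it with SH2 and 64.1%, 82.8% and 91.8% with SH3. Of all tested genes, 11.6% were below in all 6 such pairs, and of the 10 genes 4 were: ASXL1, ASXL2, HCFC1 and FOXK2. The log2 fold change of HCFC1 for both shRNAs was −0.27 (95% interval −0.68 to 0.14, edgeR adjusted p 0.867), or −0.29 (−0.49 to −0.10, edgeR adjusted p 0.108) with the replicate block. It was −0.23 with SH2 and −0.31 with SH3 without the block. With 1 sample left out the SH2 value ran from −0.36 (without the SH2 sample numbered 13) to −0.096 (without that numbered 1), and the SH3 value from −0.49 (without the SH3 sample numbered 25) to −0.11 (without that numbered 1, when the value for both shRNAs was −0.17). The length and GC correction gave −0.053 with SH2, −0.15 with SH3 and −0.10 for both (−0.055, −0.18 and −0.12 with the replicate block).

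OGT (NM_181672, chromosome X, 70752954 to 70795742, plus strand, GRCh37) varied more within groups than between them. It had 311.7, 223.7 and 183.5 CPM in EV, 220.7, 193.6 and 168.2 CPM in SH2, and 368.5, 188.5 and 175.7 CPM in SH3. The SH3 sample numbered 1 held the highest level of all 9 and was above its EV counterpart, while the other 5 knockdown samples were below theirs. For both shRNAs the log2 fold change was −0.14 (95% interval −0.70 to 0.42, edgeR adjusted p 0.975), or −0.14 (−0.38 to 0.10, edgeR adjusted p 0.483) with the replicate block. It was −0.30 with SH2 and 0.03 with SH3 without the block, and −0.27 (−0.54 to 0.006) and −0.01 with it. Without the block the SH2 value ran from −0.46 without the EV sample numbered 25 to −0.068 without the EV sample numbered 1.

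The SH3 sample numbered 1 decided the calls of this pair. When it was left out of the fit with the replicate block, HCFC1 was called lower for both shRNAs together (log2 fold change −0.24, SE 0.07, edgeR adjusted p 0.0363), and so was OGT (−0.25, SE 0.07, edgeR adjusted p 0.0318). SH2 alone gave the same calls in that fit, at −0.25 for HCFC1 (edgeR adjusted p 0.0459) and −0.28 for OGT (edgeR adjusted p 0.0282), each with an SE of 0.07. SH3 alone gave neither call in that fit, and ASXL2 was the only gene of the complex called with it. The sample left out is not part of the SH2 comparison but enters the shared estimate of the spread. With no sample left out, the SH2 values with the block were −0.25 (SE 0.10) for HCFC1 and −0.27 (SE 0.12) for OGT. Leaving out the SH3 sample numbered 1 raised the share of tested genes called from 1.1% to 12.3% for both shRNAs together. The share rose from 0.282% to 11.2% for SH2 and from 0.416% to 2.58% for SH3. The cause was not tested.

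The forkhead factors bring BAP1 to DNA, and neither passed the test for the shRNAs. FOXK2 (NM_004514, chromosome 17, 80477608 to 80562478, plus strand, GRCh37) had 185.4, 204.7 and 212.5 CPM in EV, 182.3, 196.4 and 210.4 CPM in SH2, and 144.8, 182.5 and 197.1 CPM in SH3. SH2 samples were at 95.9% to 99.0% of the same-numbered EV sample and SH3 samples at 78.1% to 92.7%. The log2 fold change was −0.03 with SH2, −0.20 with SH3 and −0.12 for both (95% interval −0.36 to 0.12, edgeR adjusted p 0.93). With the replicate block it was −0.21 with SH3 (−0.37 to −0.05, edgeR adjusted p 0.168) and −0.12 for both (−0.26 to 0.02, edgeR adjusted p 0.294). FOXK1 (NM_001037165, chromosome 7, 4721926 to 4811073, plus strand, GRCh37) had 87.9 to 91.9 CPM in EV, 75.6 to 93.0 CPM in SH2 and 82.5 to 101.8 CPM in SH3. Its EV samples, with a coefficient of variation of 2.29%, were the tightest of the 10 genes, and its log2 fold change for both shRNAs was −0.04 (−0.25 to 0.17), or −0.04 (−0.22 to 0.13) with the block.

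The MBD proteins bind the ASXL subunits through their MBD domain. MBD6 (NM_052897, chromosome 12, 57916607 to 57923931, plus strand, GRCh37) had 65.0 to 72.6 CPM in EV, 60.8 to 69.9 CPM in SH2 and 62.0 to 70.3 CPM in SH3. Both shRNAs together gave a log2 fold change of −0.09 (95% interval −0.27 to 0.09), or −0.09 (−0.25 to 0.07) with the replicate block. MBD5 (NM_018328, chromosome 2, 148778660 to 149274540, plus strand, GRCh37) was the least abundant, with 13.8, 9.05 and 9.10 CPM in EV, 11.9, 7.93 and 8.49 CPM in SH2, and 14.8, 6.18 and 8.81 CPM in SH3. MBD5 rested on 200 to 502 counts per sample. Its interval was the widest, with a log2 fold change of −0.14 (−0.75 to 0.47), or −0.16 (−0.41 to 0.10) with the replicate block. KDM1B (NM_153042, chromosome 6, 18155653 to 18224085, plus strand, GRCh37), which removes methyl groups from histone H3, had 48.3 to 55.1 CPM in EV, 49.9 to 58.0 CPM in SH2 and 47.0 to 55.4 CPM in SH3. Its log2 fold change of 0.02 (−0.17 to 0.22) was the only positive one among the 10, and it turned negative when any of 3 samples was left out. With the replicate block the KDM1B value was 0.03 (−0.14 to 0.20).

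**Figure D4:**
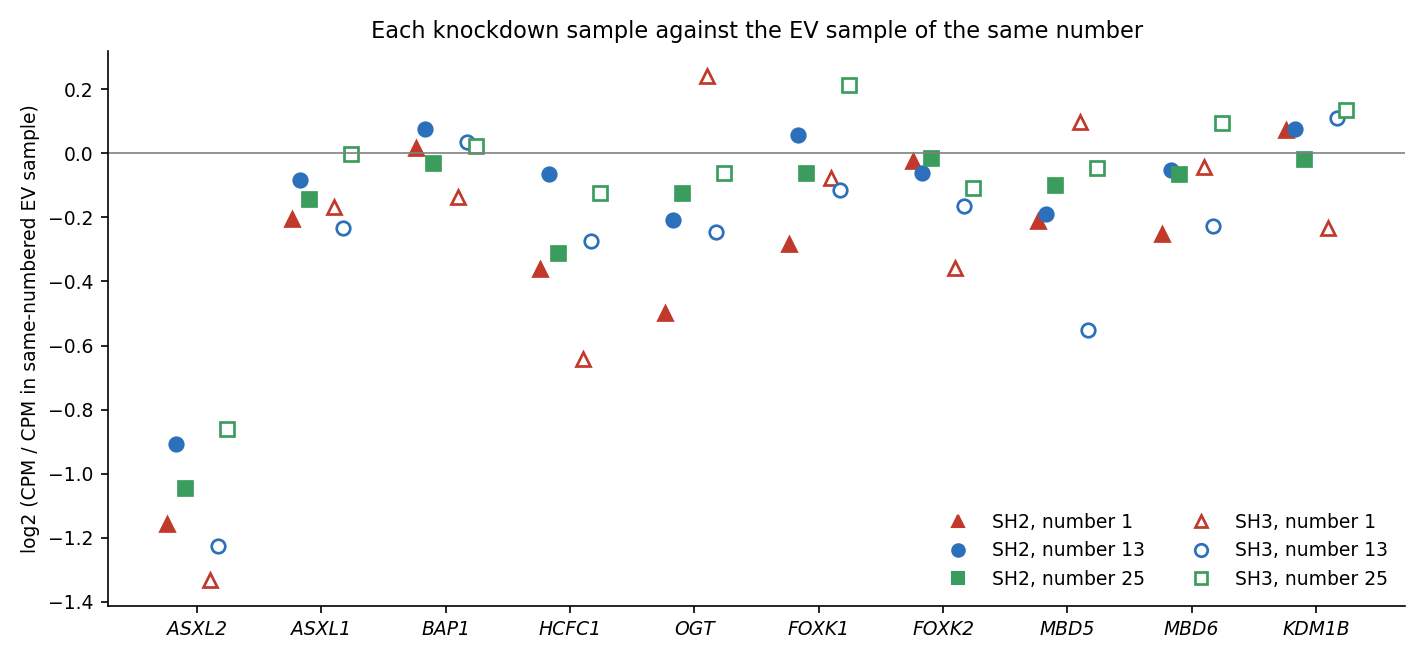
The log2 ratio of each knockdown sample to the EV sample of the same number, 6 points per gene (filled SH2, open SH3; colour and shape give the number); the grey line marks no difference. ASXL2 lies between −0.86 and −1.33, and ASXL1, HCFC1 and FOXK2 have all 6 points below 0.

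Apart from ASXL2, fitted changes for both shRNAs ran from −0.27 to 0.02 on the log2 scale, with 8 of 9 genes below 0 and a median of −0.12, beside a median of 0.01 over all genes tested. Under the replicate block, HCFC1 and ASXL1 had an unadjusted p under 0.05, as did 20.4% of all tested genes, and neither passed after adjustment. All 10 genes had canonical transcripts longer than the median tested gene (3182 bases), from 3600 bases for BAP1 to 12849 bases for ASXL2. With the correction for length and GC content and no block, 5 of the 9 genes other than ASXL2 were below 0, at −0.10 for HCFC1, −0.10 for OGT, −0.04 for FOXK2, −0.03 for MBD6 and −0.02 for ASXL1. The other 4 were above 0, at 0.16 for FOXK1, 0.04 for KDM1B, 0.03 for BAP1 and 0.02 for MBD5 (−0.0019 with the block), while ASXL2 stood at −0.90.

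The shRNAs were also set against each other, which asks whether a change differs between the hairpins. A change that both share against EV cannot be assigned to the target by this comparison. No gene of the 10 was called between SH3 and SH2, with or without the block (0% and 0.106% of all tested genes were called; without the block 293 genes had an unadjusted p under 0.05, and DESeq2 called 0.0775%). The difference, SH3 minus SH2, was −0.08 for ASXL2 (95% interval −0.43 to 0.27), −0.17 for FOXK2 (−0.45 to 0.11) and 0.33 for OGT (−0.32 to 0.98) on the log2 scale. Those of ASXL2 and OGT turned to 0.03 and −0.09 without the SH3 sample numbered 1. With the block the differences were −0.10 for ASXL2 (−0.32 to 0.12), −0.18 for FOXK2 (−0.33 to −0.02) and 0.26 for OGT (−0.02 to 0.53). The FOXK2 interval lay below 0, but edgeR's adjusted p was 0.375, and 11.9% of all tested genes had an unadjusted p under 0.05. Over the 10 genes the intervals without the block reached from −0.64 to 0.98, so they do not show that the hairpins act alike.

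Several of these genes differed between the sample numbers. Between the samples numbered 1 and those numbered 13 and 25, with the group as a term, edgeR called 5 of the 10 genes, beside 46.3% of all tested genes, so that the count by itself sets them apart from no other genes. OGT and MBD5 were called higher (24.1% of all genes were) and HCFC1, FOXK2 and BAP1 lower (22.2% of all genes were). OGT was 1.53 times its mean at numbers 13 and 25 in EV, 1.22 times in SH2 and 2.02 times in SH3, giving a log2 difference of 0.65 (95% interval 0.42 to 0.89, edgeR adjusted p 0.0012). MBD5 was 1.52, 1.45 and 1.97 times as high in the same groups, a log2 difference of 0.71 (0.46 to 0.97, edgeR adjusted p 0.0011), and its 3 samples numbered 1 lay above all 6 others. The transferase and the MBD subunit thus rose in the same 3 samples, in each group.

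HCFC1 was on the other side, at 81.8% of its mean at numbers 13 and 25 in EV, 72.4% in SH2 and 60.0% in SH3. Its log2 difference was −0.49 (95% interval −0.69 to −0.29, edgeR adjusted p 0.0022). FOXK2 fell by 0.24 on the log2 scale (edgeR adjusted p 0.011) and BAP1 fell by 0.21 (edgeR adjusted p 0.014), with all 3 BAP1 samples numbered 1 between 140.2 and 155.8 CPM and the other 6 between 164.2 and 182.4 CPM. BAP1 and MBD5 were the 2 genes of 10 whose samples numbered 1 did not overlap the rest, as was the case for 26.5% of all tested genes. For ASXL2 the difference was −0.22 (edgeR adjusted p 0.0554), and it passed the threshold under some alternatives. ASXL1 (0.06), KDM1B (0.06), MBD6 (0.02) and FOXK1 (−0.08) did not pass, although KDM1B did without the SH3 sample numbered 1 (0.18, edgeR adjusted p 0.0315). In the SH3 group the ratio was farthest from 1 for OGT, MBD5 and HCFC1 alike, but each ratio has 1 sample numbered 1 and so no replicate check.

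**Figure D5:**
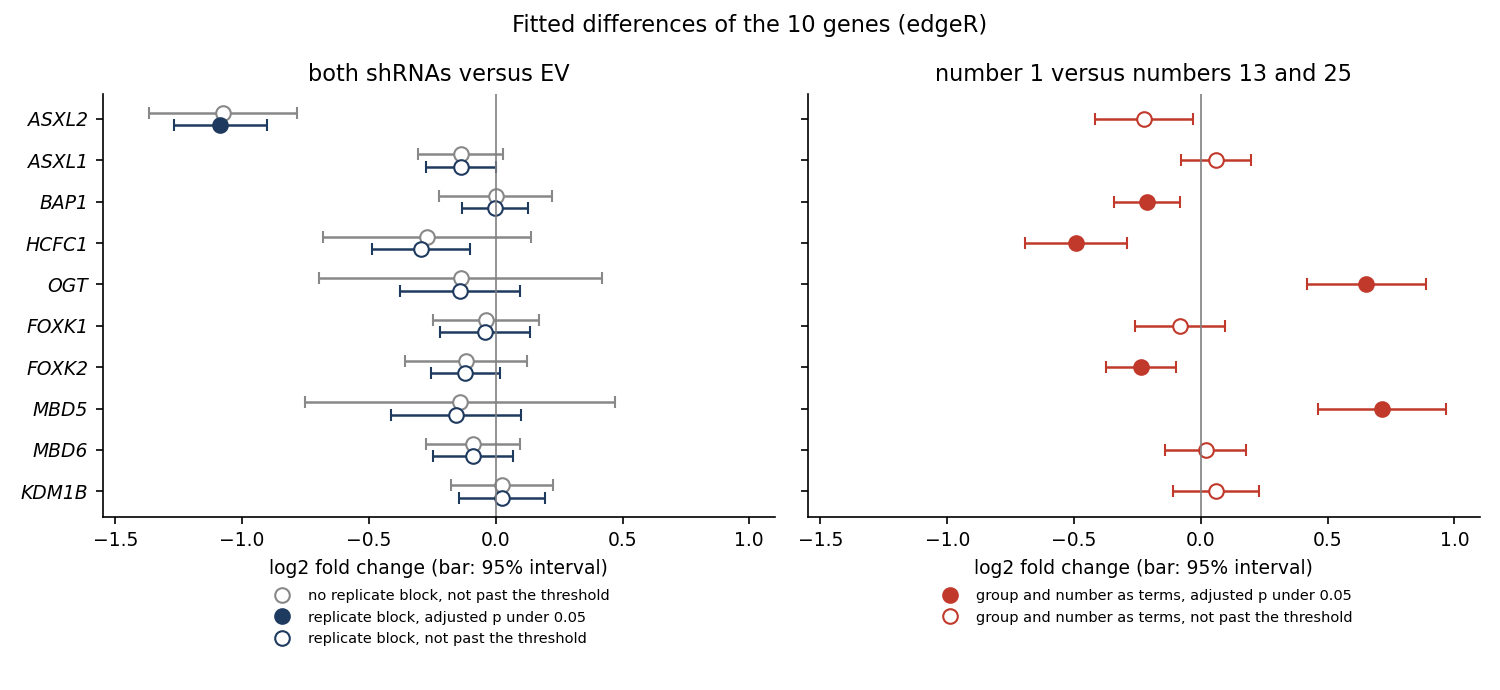
edgeR log2 fold changes with 95% intervals for both shRNAs against EV (left, without and with the replicate block) and for samples numbered 1 against those numbered 13 and 25 (right, group and number as terms); filled points have an adjusted p under 0.05. On the left only ASXL2 with the block is filled, and on the right OGT and MBD5 are filled above 0 and HCFC1, FOXK2 and BAP1 below 0.

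The promoters of the 2 genes that rose are shown for comparison with those of ASXL1 and ASXL2 above, with the same capitals. The OGT window has a YY1-type match 33 bases before the start and no ETS-type match, and the MBD5 window has an ETS-type match 74 bases before the start and no YY1-type match, so they have neither set of letters in common.
OGT (chrX:71532854-71533103, plus strand): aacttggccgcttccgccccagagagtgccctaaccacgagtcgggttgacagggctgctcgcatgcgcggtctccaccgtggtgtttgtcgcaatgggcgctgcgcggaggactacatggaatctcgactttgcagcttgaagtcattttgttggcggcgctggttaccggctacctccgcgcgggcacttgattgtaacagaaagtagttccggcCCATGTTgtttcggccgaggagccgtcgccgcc
MBD5 (chr2:148020761-148021010, plus strand): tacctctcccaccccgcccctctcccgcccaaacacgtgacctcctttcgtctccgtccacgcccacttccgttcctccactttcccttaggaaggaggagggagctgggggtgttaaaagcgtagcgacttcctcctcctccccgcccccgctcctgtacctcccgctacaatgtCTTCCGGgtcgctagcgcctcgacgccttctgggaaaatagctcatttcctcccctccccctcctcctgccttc
Between the samples numbered 25 and 13, edgeR called none of the 10 genes (5.87% of all tested genes were called, and none of the 10 had an unadjusted p under 0.05). The log2 differences ran from −0.20 for OGT to 0.21 for ASXL2.

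The genes around the complex were read from fixed lists, and none of their 40 tested members was called for the shRNAs in either fit. Over all tested genes 0% were called without the block and 0.282% (SH2), 0.416% (SH3) and 1.1% (both shRNAs) with it, so a count of 0 among 40 genes sets these lists apart from no others. The family list holds the paralogues of the 10 genes, and 9 of its 11 genes were tested. Here the median for both shRNAs was 0.06 on the log2 scale, against 0.01 over all genes. KDM1A, the paralogue of KDM1B, had a change of 0.06, and MBD2, a methyl-CpG reader, had 0.14. The other deubiquitinases of H2A (9 of 9 tested) had a median of −0.01. Among other partners of BAP1 (6 of 6 tested) the median was −0.09, with YY1, a zinc-finger factor that recruits BAP1, at −0.05 and UBE2O, which ubiquitinates BAP1, at −0.17 (edgeR adjusted p 0.8). With the replicate block UBE2O stood at −0.18 (edgeR adjusted p 0.135). The O-GlcNAc cycle, which supplies and removes the sugar that OGT adds (7 of 7 tested), had a median of 0.01. The core of the H2A ubiquitin ligase, which writes the mark that BAP1 erases (9 of 10 tested), had a median of −0.03, and its most abundant genes by CPM, BMI1 and PCGF3, stood at −0.04 and −0.03.

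Between the samples numbered 1 and the others, 22 of the 40 listed genes tested were called, beside 46.3% of all genes. Of the 40, 4 were higher and 18 lower, where 24.1% of all tested genes were higher and 22.2% lower. The lists were chosen with earlier results known and were not tested as sets. In the family, 5 genes were called lower in the samples numbered 1, with UCHL5 at −0.37, UCHL3 at −0.34 and MBD3 at −0.34 on the log2 scale. UCHL3 and UCHL5 belong, like BAP1, to the ubiquitin carboxy-terminal hydrolases, and MBD1 (−0.18) and MBD2 (−0.19) completed the 5. Of the other H2A deubiquitinases 5 were called lower and none higher: USP44 (−0.99), USP46 (−0.42), USP16 (−0.31), USP12 (−0.30) and USP22 (−0.16). USP44 was near the low end of detection, at 0.469 to 2.01 CPM. Of the other BAP1 partners 4 were lower, HAT1 (−0.38), BRCA1 (−0.29), BARD1 (−0.27) and INO80 (−0.19), and none higher.

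Of the 7 O-GlcNAc cycle genes tested, 3 were higher and 2 lower in the samples numbered 1. Over all tested genes 24.1% were higher and 22.2% lower. MGEA5, the hydrolase that removes O-GlcNAc, was higher in the samples numbered 1 by 0.28 on the log2 scale (edgeR adjusted p 0.0173), along with NAGK (0.29) and PGM3 (0.25), which make the sugar precursor. GNPNAT1 (−0.51) and UAP1 (−0.19) of the same synthetic route were lower, and GFPT1, which commits glucose to it, stood at 0.01 and was not called. OGT, which adds O-GlcNAc, and MGEA5, which removes it, were both among the 24.1% of tested genes called higher in the samples numbered 1. MGEA5 was also lower at number 25 than at number 13, by 0.48 on the log2 scale (log2 difference −0.48, edgeR adjusted p 0.0208), as was RYBP, a subunit of the H2A ubiquitin ligase (−0.32, edgeR adjusted p 0.0219). MGEA5 and RYBP were the 2 of the 40 listed genes called between numbers 25 and 13, beside 5.87% of all tested genes. Within the H2A ubiquitin ligase core PCGF6 (−0.45) and PCGF5 (−0.22) were lower in the samples numbered 1.

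The 3 profiles closest to that of ASXL2 over the 9 samples were sought among 9451 genes with a mean of at least 10 CPM by the root mean square difference of log2 CPM after centring each gene. They were TTC28 (0.246), MYO9A (0.259) and SOGA1 (0.260). ASXL2 itself deviated from its own mean by 0.537 on this measure, so likeness is partial. TTC28 had 49.3 ± 1.04 CPM in EV, 32.7 ± 3.10 in SH2 and 32.8 ± 4.89 in SH3 (SD, n = 3), and MYO9A 35.9 ± 2.10, 24.5 ± 4.16 and 24.6 ± 4.78 CPM. SOGA1 had 82.8 ± 16.5, 50.8 ± 9.98 and 51.4 ± 25.7 CPM. These genes were chosen for this pattern, so no test is attached to it.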

How the data were processed

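RNA had been sequenced from 9 SKNO-1 samples, with TruSeq libraries per the labels (whose extraction text describes sorted marrow cells) and unstranded poly(A) selection per the study's methods. The deposited values were raw counts per RefSeq transcript on hg19; the submitters' processing notes name STAR, featureCounts and DESeq2. A read shared by transcripts counts in each. From the 48104 transcripts, each symbol was represented by the one with the highest total. Counts were tested with edgeR 4.0.16 (quasi-likelihood, R 4.3.3) after filterByExpr (minimum count 10, minimum total 15) and TMM scaling, with Benjamini-Hochberg adjustment over 14199 genes and a threshold of 0.05. DESeq2 1.42.0, RLE scaling, no filter, summed distinct transcripts, a length and GC correction, the replicate block and leaving out samples were alternatives. CPM are counts scaled to TMM library sizes; their precision is limited by 3 samples a group. Standard errors were derived from the F statistic. The labels' numbers were taken to pair samples, since deviations from group means correlated at 0.470 to 0.774 between same-numbered samples and at most 0.329 otherwise. Fits were tested on simulated data. Named genes were the 10 members, listed genes past the threshold in a comparison or otherwise the most abundant of a list, and the 3 genes most like ASXL2. The members and lists were chosen with earlier results of these data known. Some listed genes are counted in their lists but not reported individually here.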

Additional observations from a re-analysis of the deposited data

How the results depend on the processing

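Without the replicate block edgeR called 0 genes in each shRNA comparison. With it the counts were 40 genes for SH2, 59 for SH3, 156 for both shRNAs and 15 for SH3 against SH2; with the block and a length and GC correction they were 3, 49, 9 and 6; DESeq2 gave 25, 26, 56 and 11; and with the samples numbered 1 left out and the replicate block, an alternative chosen after seeing the data, 267, 341, 370 and 129. In each of these settings 1 of the 10 genes, ASXL2, was called against EV, and none between the shRNAs. When 1 sample was left out without the block, 0 to 1 genes were called for SH3 and 0 to 2 for both shRNAs (0 to 1 of the 10 genes, ASXL2 without the SH3 sample numbered 1 or 25), and 50 to 2750 between numbers 25 and 13, the highest without the SH3 sample numbered 1. Paired by number, the difference in the ASXL1 transcript ratio (−1.17 percentage points) passed its threshold; leaving out samples it ran from −1.68 to −0.58. The cause was not tested.

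Some small log2 differences changed sign. For both shRNAs against EV, BAP1 was 0.00051 with DESeq2, 0.00048 with RLE scaling, 0.00012 with summed transcripts, 0.032 with the length and GC correction (0.030 with the block), 0.025 without the samples numbered 1 (0.026 with the block) and −0.051 to 0.064 with 1 sample left out. FOXK1 was 0.16 with the length and GC correction, with or without the block (0.163 and 0.162), and 0.029 without the samples numbered 1 (0.028 with the block). MBD5 was 0.024 with the length and GC correction and −0.35 to 0.093 with 1 sample left out, OGT −0.35 to 0.097 and KDM1B −0.016 to 0.080. For SH2 against EV, FOXK2 was 0.056 with the length and GC correction with or without the block, and −0.095 to 0.019 with 1 sample left out. For SH3 against EV, OGT was −0.011 with the replicate block, −0.16 without the samples numbered 1 with or without the block, and −0.40 to 0.26 with 1 sample left out. Between the shRNAs, leaving out samples gave −0.29 to 0.030 for ASXL2 and −0.094 to 0.52 for OGT. Between number 1 and the others, MBD6 was −0.00091 with the length and GC correction and −0.028 to 0.085 with 1 sample left out, and KDM1B −0.013 to 0.18. No scaling moved the median of all genes by over 0.1. For both shRNAs against EV, MBD5, at 200 to 502 counts, had an SE of 0.27 without the block and 0.12 with it. OGT, at 4825 to 11332 counts, had 0.25 and 0.11.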
